A study of Mus musculus with 35 samples.

Results

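The diet effect that hypothalamus and hippocampus have in common was measured in 23 of the 35 libraries of the series, chosen by the region named in the sample title, with both diets kept. All mice were male C57BL/6JRj. The groups were hypothalamus on a high-fat high-sugar diet (HPT HFHS, 5 libraries), hippocampus on that diet (Hippo HFHS, 7 libraries), hypothalamus on standard chow (HPT SC, 6 libraries) and hippocampus on standard chow (Hippo SC, 5 libraries). The HFHS diet is labelled 58%, began at 8 to 9 weeks of age and lasted 4 months, and SC mice of the same age ate chow over the same time. Each library pooled tissue of 2 animals, and cells were isolated by magnetic sorting (MACS) for ACSA2, a surface protein of astrocytes that is the product of Atp1b2, before cDNA was amplified with a low-input kit. The other 12 libraries came from cortex (CTX HFHS and CTX SC, 6 each) and are used only to set the shared effect against that of a further region. The labels do not say whether a hypothalamus and a hippocampus library came from the same animals, and the p-values below treat the 23 libraries as independent.

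Astrocytes are the glial cells that take up glutamate, supply neurons with metabolites and line blood vessels. In the hypothalamus they take part in sensing nutrients and hormones, and in rodents a fat-rich diet is known to alter hypothalamic glia within days. The hippocampus, a region of memory, is studied for slower effects of the same diets. Beads against ACSA2 enrich astrocytes but can retain cells that stick to them or fragments such as myelin.

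The label "astrocytes" fits the libraries only in part. All 18 astrocyte markers were measured, and their summed level had a lowest, median and highest value of 9070, 11800 and 33800 CPM (counts scaled to a common library size) in HPT HFHS, 6190, 9030 and 10700 CPM in HPT SC, 4520, 7500 and 23300 CPM in Hippo HFHS, and 4310, 6510 and 21600 CPM in Hippo SC. Markers of myelinating oligodendrocytes, the cells that wrap axons, were higher in every group, with median sums of 104000 CPM in HPT HFHS, 108000 CPM in HPT SC, 134000 CPM in Hippo HFHS and 126000 CPM in Hippo SC. Markers of microglia and endothelium had median sums between 650 and 1200 CPM, and those of neurons between 316 and 427 CPM. Choroid plexus markers had median sums of 7860 CPM in Hippo HFHS and 10300 CPM in Hippo SC, above the astrocyte sums there, and of 691 CPM in HPT HFHS and 190 CPM in HPT SC. A sum follows the most abundant genes of its list. By the mean log2 CPM of the genes the order was the reverse. Choroid plexus markers had 6.74 in Hippo HFHS and 6.44 in Hippo SC, against 8.03 and 7.98 for astrocyte markers. Atp1b2 itself had 376, 1946, 423, 639 and 271 CPM in the HPT HFHS libraries, and a lowest, median and highest value of 319, 499 and 621 CPM in HPT SC. Its hippocampus values were 56.3, 157 and 525 CPM in Hippo HFHS, against 159, 597, 143, 289 and 257 CPM in Hippo SC. Library HPT HFHS 2 thus stood apart by its astrocyte level, and library HPT SC 6 by its short transcripts (mean of 2483 bases). Some of the results below are also given without both. Library totals lay between 47642159 and 65982495 counts.

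In the fit of both regions, no gene passed. Of 20838 genes tested, 0 had an adjusted p under 0.05 for HFHS against SC (percent called 0%, edgeR quasi-likelihood test with region as a term), and the smallest adjusted p was 0.0611. An unadjusted p under 0.05 was found for 2225 genes (10.7%), of which 1374 were lower on HFHS (6.59%) and 851 higher (4.08%). With the mean transcript length of a library as a covariate the balance turned, with 886 lower and 1028 higher, and without HPT SC 6 there were 1792 lower and 1282 higher. On the same counts DESeq2 called 197 genes, 54 higher and 143 lower, and limma voom with sample quality weights called 830, 89 higher and 741 lower, with 169 genes called by both. The edgeR count also reached 41 without library HPT SC 6, 70 without Hippo HFHS 2, 11 without HPT HFHS 4 and 18 without HPT SC 6 and HPT HFHS 2 together. It stayed 0 with RLE or upper quartile scaling, no filter on low counts, counts from TPM or transcript length as a covariate. Most fits with a single library left out gave 0 as well. In simulated counts of this design, edgeR recovered 45% of 2-fold and 81% of 4-fold changes. Each gene was drawn independently there, so shifts that many genes of a library share were not simulated. The genes below are therefore described by their values, and those said to be lower or higher on HFHS did not pass the adjusted threshold in edgeR.

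Fold changes had the same direction in both regions in 12454 of 20838 genes. Within hypothalamus alone 0 genes passed (0%) and 1444 had an unadjusted p under 0.05 (6.93%), 692 higher (3.32%) and 752 lower (3.61%), and within hippocampus 0 passed (0%) and 1317 did so (6.32%), 517 higher (2.48%) and 800 lower (3.84%). Of those 1444 genes, 76.7% had the same direction in hippocampus, and of the 1317 genes 75.2% had the same direction in hypothalamus, against 59.8% of all genes tested. Both lists held 175 genes, which is 12.1% of the hypothalamus list and 13.3% of the hippocampus list. Of these 175, 142 were lower on HFHS in both regions, 26 were higher in both and 7 differed in direction. Across all 20838 genes, which are not independent replicates, the fold changes of the regions had a Spearman correlation of 0.216.

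**Figure D1:**
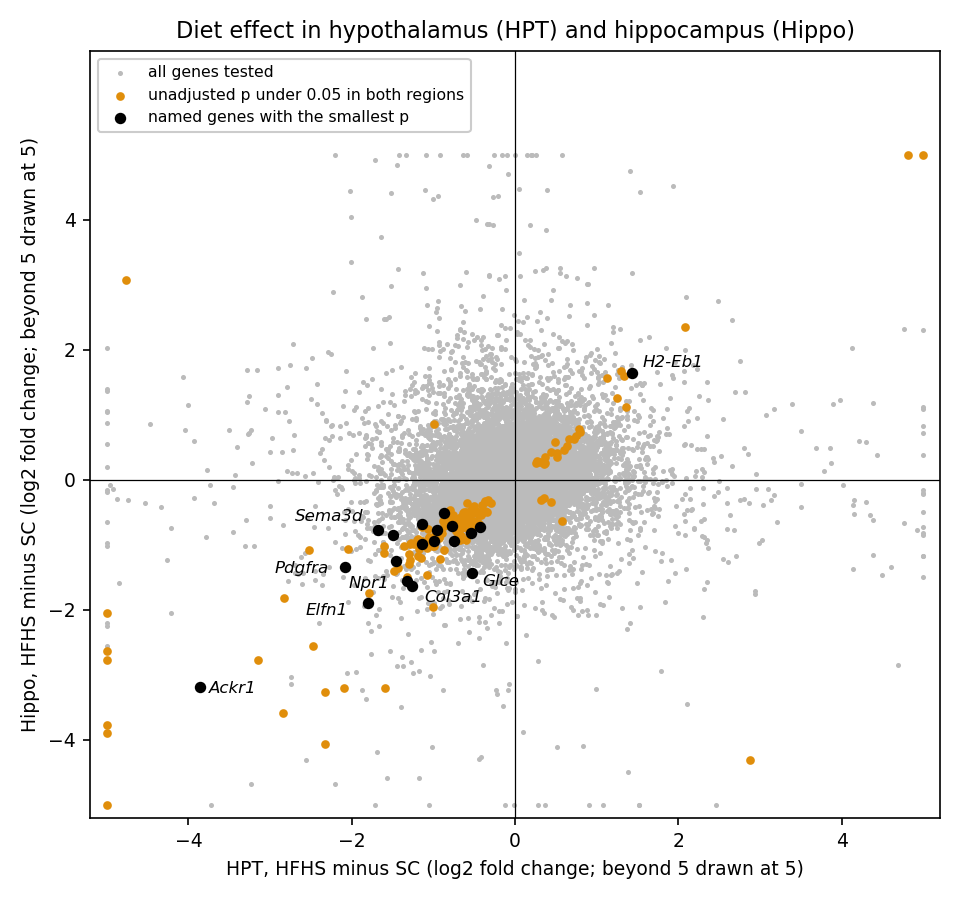
Each point is a gene, placed by its log2 fold change of HFHS over SC in hypothalamus (horizontal axis) and in hippocampus (vertical axis). Orange points have an unadjusted p under 0.05 in both regions, and 142 of these 175 lie at lower left; black points are the named genes with the smallest p, among which H2-Eb1 alone lies at upper right.

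Libraries on HFHS held shorter transcripts on average. The mean length of the transcripts in a library, weighted by counts, was 2685 ± 115 bases in HPT HFHS (SD, n = 5) and 2803 ± 163 bases in HPT SC (n = 6), and 2687 ± 132 bases in Hippo HFHS (n = 7) and 2829 ± 111 bases in Hippo SC (n = 5). Adjusted for region, HFHS libraries were shorter by 131 bases (two-sided exact permutation p = 0.0288, adjusted p = 0.0864 over 3 library properties). Within a region the exact p was 0.212 in hypothalamus and 0.0808 in hippocampus, and the same exact test over both regions gave p = 0.65 for the total count and p = 0.965 for the number of genes with at least 10 counts. Among genes, the median log2 fold change in the shared fit was 0.12 for transcripts of 1000 to 2000 bases and -0.19 for those of 4000 to 6000 bases. Across genes the fold change and the length had a Spearman correlation of -0.336, at -0.181 in hypothalamus and -0.357 in hippocampus. Gene and library lengths were weighted by the same counts. The values across genes therefore restate the difference between libraries and are not a second observation. The part of length in any single gene's difference was not tested.

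**Figure D2:**
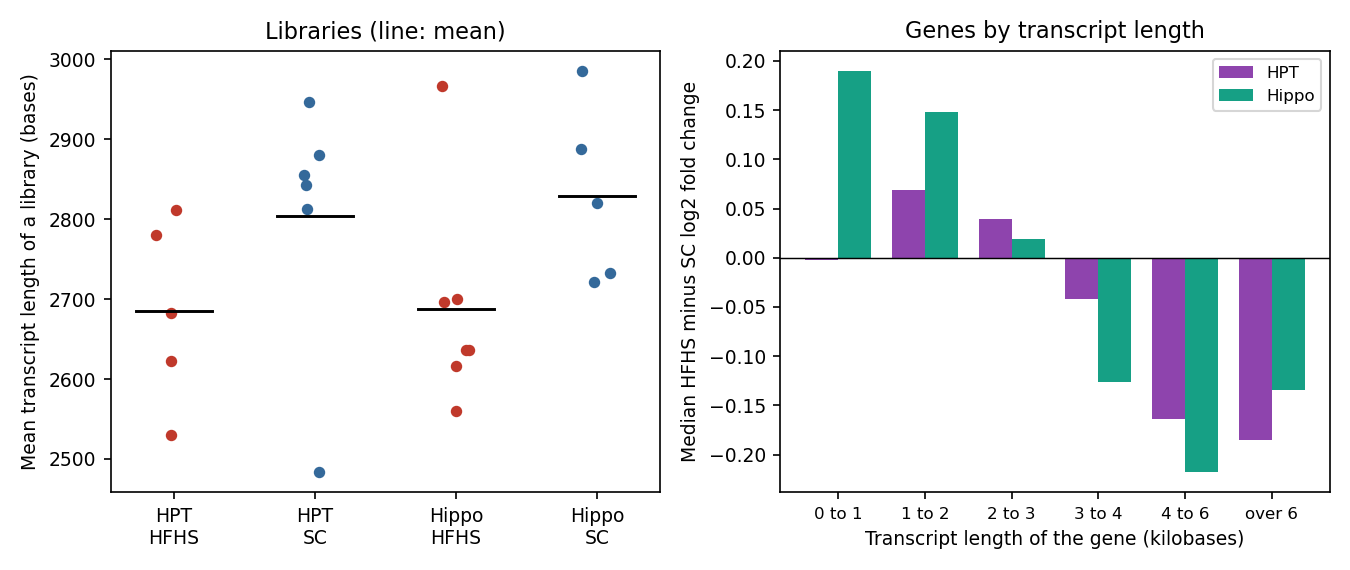
Left, mean transcript length of each library in bases by region and diet, with group means as lines; the HFHS means lie at 2685 and 2687 bases and the SC means at 2803 and 2829 bases. Right, median log2 fold change of HFHS over SC for genes grouped by transcript length in kilobases; bars are positive from 1 to 3 kilobases and negative above, at 4 to 6 kilobases -0.164 in hypothalamus and -0.218 in hippocampus.

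The gene with the smallest p was Vsig10, which encodes an immunoglobulin-domain membrane protein. Vsig10 had 5.36, 4.46, 3.68, 4.08 and 4.47 CPM in the HPT HFHS libraries, against a lowest, median and highest value of 6.72, 8.22 and 10.6 CPM in HPT SC. Hippocampus libraries held 3.57, 4.59 and 5.90 CPM in Hippo HFHS and 5.62, 9.31, 6.88, 11.9 and 6.07 CPM in Hippo SC. The diets did not overlap in hypothalamus, as in 180 of all genes (0.864%), and overlapped by 1 HFHS library in hippocampus, where 68 genes did not (0.326%). In 1 gene (0.0048%) all HFHS libraries lay below all SC libraries in both regions. Vsig10 had a log2 fold change of -0.86 ± 0.14 (SE, adjusted p = 0.0611 by edgeR).

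Of the 20 named genes with the smallest p, 19 had lower means on HFHS, and none passed the adjusted threshold in edgeR. Npr1, the receptor of atrial natriuretic peptide that makes cyclic GMP, had 0.988, 0.939, 2.65, 2.48 and 1.34 CPM in HPT HFHS and a lowest, median and highest value of 2.33, 4.59 and 5.28 CPM in HPT SC. In hippocampus it had 0.787, 2.46 and 3.94 CPM in Hippo HFHS and 5.99, 4.53, 4.89, 8.44 and 7.55 CPM in Hippo SC, so that the diets did not overlap there (log2 fold change over both regions -1.45 ± 0.26, adjusted p = 0.0878 by edgeR). Arap3, a regulator of small GTPases in vessels, showed the same order, with means of 3.39 ± 1.10 CPM in HPT HFHS and 9.36 ± 4.75 CPM in HPT SC, and 4.10 ± 1.44 CPM in Hippo HFHS and 9.70 ± 5.38 CPM in Hippo SC (SD). Its Hippo HFHS libraries all lay below the Hippo SC libraries, and its log2 fold change was -1.35 ± 0.26 (adjusted p = 0.0974 by edgeR).

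Hap1, the huntingtin-associated protein that is abundant in hypothalamic neurons, had 51.3, 56.5, 68.5, 74.0 and 73.0 CPM in HPT HFHS and a lowest, median and highest value of 75.9, 126 and 132 CPM in HPT SC. Mrgpre, an orphan receptor of the Mas-related family, had 5.36, 5.59, 5.72, 6.12 and 7.42 CPM in HPT HFHS against 8.26, 10.0 and 12.8 CPM in HPT SC, again without overlap. For both genes the hippocampus groups overlapped, with means of 14.2 ± 3.41 CPM in Hippo HFHS and 20.3 ± 6.39 CPM in Hippo SC for Hap1, and 3.33 ± 1.21 CPM and 5.44 ± 1.05 CPM for Mrgpre in the same groups.

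Cbfa2t2, a transcriptional corepressor, separated the diets in hippocampus instead, with a lowest, median and highest value of 22.4, 29.6 and 37.0 CPM in Hippo HFHS and 55.7, 50.0, 53.0, 42.4 and 40.8 CPM in Hippo SC. Glce, an epimerase of heparan sulfate synthesis, had 2.44, 4.21 and 5.51 CPM in Hippo HFHS and 10.6, 10.4, 6.38, 16.4 and 13.5 CPM in Hippo SC. Its log2 fold change was -1.44 in hippocampus and -0.53 in hypothalamus, and the difference of -0.91 ± 0.36 between regions did not pass the adjusted threshold (adjusted p = 1 by edgeR, unadjusted p = 0.0196). Sema3d, a secreted guidance protein, Elfn1, a synaptic adhesion protein, and Megf11, a cell surface protein of neuron spacing, had log2 fold changes of -1.21 ± 0.26, -1.84 ± 0.40 and -0.97 ± 0.20 (adjusted p = 0.116 each by edgeR). The remaining Iqce, Mfsd4a, Stk11ip, Leng8 and Sh3bp4 had log2 fold changes between -1.16 and -0.68. Olfr874, an olfactory receptor gene, was at 0 CPM in all HPT HFHS libraries and between 0 and 0.349 CPM in HPT SC, too low for a fold.

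Oligodendrocyte precursors are the dividing glia that give rise to myelinating cells. Of 15 of their genes, 12 had log2 fold changes below 0 in both regions and 1 above 0 in both. Of all 20838 genes, 6143 lay below 0 in both regions and 6311 above. Pdgfra, the growth factor receptor that keeps precursors dividing, had 30.1, 28.1, 51.2, 106 and 55.8 CPM in HPT HFHS, against a lowest, median and highest value of 98.8, 226 and 438 CPM in HPT SC. Its hippocampus values were 5.83, 12.7 and 32.8 CPM in Hippo HFHS and 22.8, 31.5, 20.4, 67.0 and 43.9 CPM in Hippo SC. In each region 1 HFHS library reached into the SC range, and the log2 fold change was -1.70 ± 0.31 (adjusted p = 0.0878 by edgeR), called by DESeq2 (adjusted p = 9.89e-05) and by voom (adjusted p = 0.00365). Fewer cells of a type and less RNA per cell cannot be told apart in these bulk libraries.

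Gpr17, a receptor of precursors that have begun to mature, had 19.2, 15.5, 36.0, 43.2 and 28.6 CPM in HPT HFHS and a lowest, median and highest value of 53.5, 161 and 311 CPM in HPT SC, with no overlap. Hippocampus libraries held 1.20, 6.76 and 13.5 CPM in Hippo HFHS and 5.92, 15.8, 9.73, 29.6 and 14.6 CPM in Hippo SC, where the diets overlapped. Its log2 fold change was -1.79 ± 0.40 over both regions (adjusted p = 0.127 by edgeR), at -2.53 in hypothalamus and -1.08 in hippocampus. The test of that difference between regions gave 1.44 ± 0.72 (adjusted p = 1 by edgeR, unadjusted p = 0.0568).

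Matn4 and Tnr, both secreted proteins of the extracellular matrix, completed the 4 precursor genes with the smallest p. Matn4 had 20.3, 7.42, 7.35, 45.3 and 30.4 CPM in HPT HFHS against 38.9, 54.4 and 72.5 CPM (lowest, median, highest) in HPT SC, and its fold change was -1.30 in each region. Tnr had 6.50, 8.25, 18.3, 21.2 and 8.81 CPM in HPT HFHS against 19.3, 37.5 and 64.4 CPM in HPT SC, a log2 fold change of -1.63, and -0.59 in hippocampus. In both genes 1 HPT HFHS library overlapped with HPT SC.

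Of the 15 precursor genes, all measured, 8 had an unadjusted p under 0.05 and were lower (53.3%, against 6.59% of all genes), 0 were higher and 0 passed the adjusted threshold in edgeR. Their median log2 fold change was -0.84, at -0.98 in hypothalamus and -0.60 in hippocampus, against 0.02 for all genes. The count was 8 with transcript length as a covariate, 8 without HPT SC 6 and HPT HFHS 2, and 7 to 9 when any single library was left out. DESeq2 called 6 of them and voom 8. Olig1 and Olig2, transcription factors of the whole oligodendrocyte lineage, had log2 fold changes of -0.22 and -0.62 with unadjusted p of 0.287 and 0.227 by edgeR. Of 18 genes of myelinating cells, 1 was lower (5.56%) and the median was -0.12. That gene was Myrf, the transcription factor of myelin genes, at a log2 fold change of -0.76 ± 0.34 (adjusted p = 0.429 by edgeR).

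**Figure D3:**
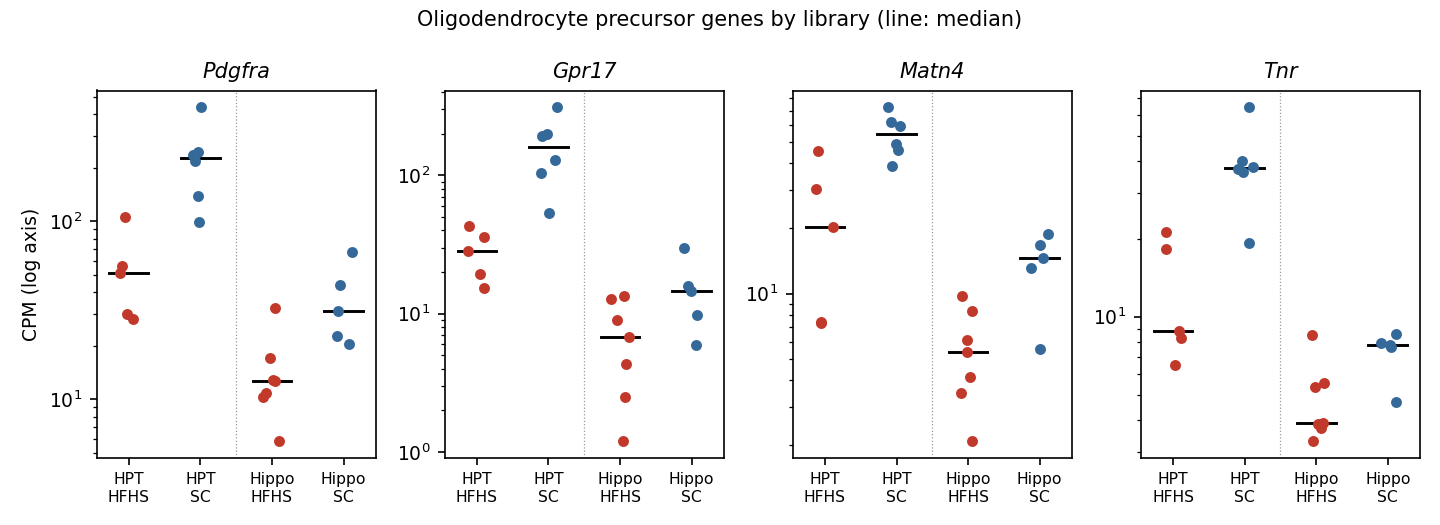
CPM of 4 oligodendrocyte precursor genes in each library on log axes, HFHS in red and SC in blue, with group medians as lines. The HFHS medians lie below the SC medians in both regions, for Pdgfra at 51.2 against 226 CPM in hypothalamus and at 12.7 against 31.5 CPM in hippocampus.

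Class II antigen presentation genes had higher means on HFHS in both regions. Class II molecules display peptides from engulfed material to helper T cells and are made by macrophages, dendritic cells, B cells and activated microglia. H2-Eb1, a class II beta chain gene and one of the 20 genes with the smallest p, had 47.6, 8.30, 49.4, 38.1 and 24.4 CPM in HPT HFHS and a lowest, median and highest value of 7.22, 9.16 and 25.2 CPM in HPT SC. In hippocampus it had 12.9, 31.9 and 55.8 CPM in Hippo HFHS and 4.95, 3.35, 7.60, 14.1 and 17.3 CPM in Hippo SC. The diets overlapped in both regions, and the low HFHS value of hypothalamus was library HPT HFHS 2. The log2 fold change was 1.54 ± 0.33 (adjusted p = 0.116 by edgeR, 0.00239 by DESeq2, 0.00657 by voom).

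The partners of H2-Eb1 were looked up after its value was seen. H2-Ab1, the beta chain of I-A, had 111, 25.0, 118, 81.4 and 57.4 CPM in HPT HFHS against 21.2, 24.8 and 61.6 CPM (lowest, median, highest) in HPT SC, and 26.7, 73.8 and 135 CPM in Hippo HFHS against 11.3, 11.6, 21.5, 43.6 and 38.5 CPM in Hippo SC. H2-Aa, its alpha chain, had log2 fold changes of 1.33 in hypothalamus and 1.60 in hippocampus. Cd74, the invariant chain that guides class II molecules through the cell, had 198 ± 97.5 CPM in HPT HFHS and 83.7 ± 49.6 CPM in HPT SC, and 172 ± 77.9 CPM in Hippo HFHS and 71.8 ± 41.7 CPM in Hippo SC. All 4 genes thus stood on HFHS at 1.25 to 1.54 on the log2 scale above SC, and library HPT HFHS 2 was the lowest HFHS library of hypothalamus in each.

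Class II genes of mouse share conserved boxes just upstream of their start, among them the Y box, an inverted CCAAT motif. The 150 bases before the start of the 2 class II chains found in the RefSeq promoter table (build GRCm38.p6) are shown because both genes had higher means on HFHS in both regions. H2-Eb1 lies on the plus strand, with this stretch at chr17:34305717-34305866, and H2-Aa on the minus strand, with it at chr17:34287824-34287973. Both are printed along the gene's own strand, with the Y box letters CTGATTGG in capitals.
H2-Eb1: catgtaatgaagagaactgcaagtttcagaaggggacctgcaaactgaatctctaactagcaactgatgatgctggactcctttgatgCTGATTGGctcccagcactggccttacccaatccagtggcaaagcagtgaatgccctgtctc
H2-Aa: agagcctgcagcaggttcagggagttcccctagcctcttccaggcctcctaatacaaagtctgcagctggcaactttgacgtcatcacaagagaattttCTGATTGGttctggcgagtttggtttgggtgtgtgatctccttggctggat
The motif began 62 bases before the start in H2-Eb1 and 51 bases before it in H2-Aa. Searched on both strands in the 250 bases before the start, it was present in 1258 of 32851 promoters in the table (3.83%). A match describes the sequence and no binding was measured.

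**Figure D4:**
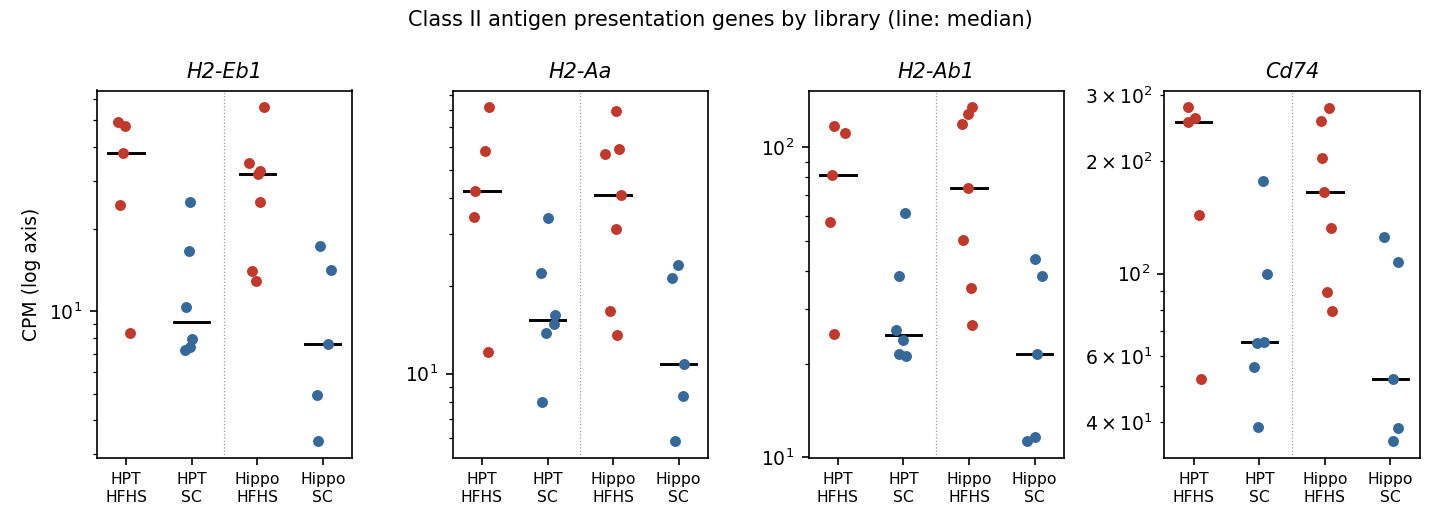
CPM of 4 class II antigen presentation genes in each library on log axes, HFHS in red and SC in blue, with group medians as lines. The HFHS medians lie above the SC medians in both regions, and library HPT HFHS 2 lies among the HPT SC libraries in every panel.

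Microglia markers also had higher means, so their levels are given beside the class II genes. Of 14 microglia markers, all measured, 9 were higher with an unadjusted p under 0.05 and 0 lower, against 4.08% of all genes higher, and the median was 0.58 (0.36 in hypothalamus, 0.79 in hippocampus). The summed level of the list had a lowest, median and highest value of 602, 900 and 1390 CPM in HPT HFHS, 293, 693 and 1420 CPM in HPT SC, 557, 875 and 2710 CPM in Hippo HFHS, and 562, 650 and 966 CPM in Hippo SC. With the microglia score as a covariate, chosen after seeing the data, H2-Eb1 had a log2 fold change of 1.31, H2-Ab1 of 1.18, H2-Aa of 1.15 and Cd74 of 0.98. Ctss, a protease that trims the class II invariant chain, had the smallest p of the list and a log2 fold change of 0.78 ± 0.30 (adjusted p = 0.35 by edgeR). C1qc, C1qb and Fcrls, the complement and receptor genes of microglia, had 0.68, 0.71 and 0.57.

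The count of 9 microglia markers was 11 without HPT SC 6 and HPT HFHS 2, 3 without Hippo HFHS 4, 4 without HPT HFHS 1, Hippo SC 2 or Hippo SC 3, 5 without HPT SC 1, HPT HFHS 3, Hippo SC 4 or Hippo HFHS 2, and 1 with transcript length as a covariate. Library Hippo HFHS 4 held 334 CPM of C1qc, where the other libraries of its group lay between 71.2 and 129 CPM. With length as a covariate the class II genes kept log2 fold changes of 1.16 for H2-Eb1, 1.13 for H2-Ab1, 1.11 for H2-Aa and 0.91 for Cd74.

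Of 21 listed inflammation genes, 20 were measured. In both regions, 8 of these had log2 fold changes above 0 (6311 of all 20838 genes) and 4 below 0 (6143). With an unadjusted p under 0.05, 6 were higher (30%, against 4.08% of all genes) and 1, the receptor gene Il1r1, was lower (5%, against 6.59%). Il1b, which encodes the cytokine interleukin 1 beta, had 57.9, 11.9, 47.1, 11.2 and 26.4 CPM in HPT HFHS and a lowest, median and highest value of 5.93, 12.7 and 21.2 CPM in HPT SC. Its hippocampus values were 7.76, 14.5 and 31.1 CPM in Hippo HFHS and 8.20, 3.54, 11.6, 7.55 and 14.8 CPM in Hippo SC, so that the diets overlapped in both regions. Its log2 fold change was 1.04 ± 0.31 (adjusted p = 0.243 by edgeR).

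Il1a, the related interleukin 1 alpha, and Tnf, tumour necrosis factor, each had a log2 fold change of 1.05 (SE 0.41 and 0.44), and Tlr2, a receptor of bacterial lipids, 0.62 ± 0.28. The 6 became 1 without Hippo HFHS 4, 2 without HPT HFHS 3 and 3 without HPT SC 1, HPT HFHS 1, Hippo SC 1, Hippo SC 2 or Hippo SC 3. With length as a covariate 3 were higher and 0 lower. With the microglia score as a covariate, chosen after seeing the data, 1 was higher and 1 lower, the list median was -0.07 against 0.22 without it, and the log2 fold change was 0.59 for Il1b, 0.04 for Il1a, 0.10 for Tnf and 0.21 for Tlr2.

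Among 20 interferon response genes, 1 was higher and 1 lower with an unadjusted p under 0.05, shares near those of all genes (4.08% higher and 6.59% lower). The higher gene was H2-K1, a class I chain, at 0.34, and the lower was Stat2, a transcription factor of interferon signalling, at -0.29. Both counts were 0 with length as a covariate. The higher count was 5 and the lower count 0 without Hippo SC 4, and the higher count was 3 without HPT SC 6 and 2 without HPT HFHS 2, HPT HFHS 4 or Hippo SC 5.

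In a list of 10 blood cell genes, 7 had log2 fold changes above 0 in both regions, against 6311 of all 20838 genes. The 2 genes S100a8 and S100a9 lay below 0 in both, as did 6143 of all genes, and the list median was 0.37. With an unadjusted p under 0.05 those 2 were lower (20%, against 6.59% of all genes) and 1 was higher (10%, against 4.08%). These counts ran from 1 to 3 and from 0 to 2 when single libraries were left out, with 1 lower without Hippo SC 5. The median was -0.36 with length as a covariate, with 3 lower and 0 higher. S100a8, a calcium-binding protein that fills neutrophils, had 0, 0.175, 0.221, 0.116 and 0.0971 CPM in HPT HFHS against 0.104, 0.485 and 1.70 CPM (lowest, median, highest) in HPT SC. Hippocampus libraries held 0, 0.157 and 0.343 CPM in Hippo HFHS and 0.345, 0.105, 0.447, 1.60 and 5.70 CPM in Hippo SC. The log2 fold change was -2.83 ± 0.67 (adjusted p = 0.135 by edgeR), and that of its partner S100a9 was -2.95 ± 0.94 (adjusted p = 0.269). Retnlg, a neutrophil gene chosen after its values were seen, was at 0 CPM in 4 of 5 HPT HFHS libraries and between 0.0346 and 0.917 CPM in HPT SC.

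Lcn2, an iron-scavenger carrier made by neutrophils and by glia under inflammation, had 0.266, 0.371, 0.0184, 2.35 and 0 CPM in HPT HFHS and a lowest, median and highest value of 0.159, 2.27 and 16.2 CPM in HPT SC. In hippocampus it had 0, 0.321 and 0.728 CPM in Hippo HFHS and 0.161, 0.0843, 0.223, 7.93 and 13.3 CPM in Hippo SC. Ackr1, a chemokine-binding receptor of venules, had 0.0950, 0.262, 0.202, 0.200 and 0.369 CPM in HPT HFHS and 0.257, 1.61 and 13.4 CPM (lowest, median, highest) in HPT SC. In hippocampus Ackr1 had 0.288, 0.807 and 1.22 CPM in Hippo HFHS and 1.22, 0.527, 0.731, 10.4 and 20.1 CPM in Hippo SC. The high values of S100a8, Lcn2 and Ackr1 in hippocampus were those of Hippo SC 4 and Hippo SC 5. The other 3 Hippo SC libraries lay within the range of Hippo HFHS for Lcn2 and Ackr1, and 1 of them did for S100a8. Ackr1 had a log2 fold change of -3.49 ± 0.66 (adjusted p = 0.0974 by edgeR) and Lcn2 of -3.23 ± 0.91 (adjusted p = 0.218).

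Endothelial markers were lower in 3 of 14 cases with an unadjusted p under 0.05 (21.4%, against 6.59% of all genes) and higher in 0, with a median of -0.45. The 3 were Vwf, the clotting factor stored in vessel walls, Cdh5, the cadherin of endothelial junctions, and Abcb1a, a drug efflux pump of the blood-brain barrier, at -1.01, -1.14 and -0.68. Vwf had 9.40, 5.26, 16.1, 11.4 and 8.10 CPM in HPT HFHS and a lowest, median and highest value of 6.85, 15.5 and 39.9 CPM in HPT SC, and the diets overlapped in both regions. The 3 became 1 without Hippo SC 5, 5 without HPT HFHS 5, Hippo SC 2 or Hippo HFHS 6, 6 without HPT SC 3 or Hippo SC 3, and 8 with length as a covariate.

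Collagens, the fibrous proteins of matrix and basement membrane, had 9 of 23 genes lower with an unadjusted p under 0.05 (39.1%, against 6.59% of all genes) and 0 higher, with a median of -0.55. Col3a1, a fibrillar collagen of vessel walls, had 3.97, 3.71, 4.72, 8.15 and 1.22 CPM in HPT HFHS against 3.49, 10.9 and 16.9 CPM (lowest, median, highest) in HPT SC. Its hippocampus values were 1.51, 1.79 and 2.93 CPM in Hippo HFHS and 3.27, 6.45, 7.58, 8.94 and 3.76 CPM in Hippo SC. The diets did not overlap there, and the log2 fold change over both regions was -1.45 ± 0.29 (adjusted p = 0.0974 by edgeR, 0.00111 by DESeq2, 0.0162 by voom).

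Col6a2, a chain of the beaded filament collagen, had a log2 fold change of -1.35 ± 0.32, Col11a2, a cartilage collagen chain, of -1.17, and Col4a1, the main basement membrane chain, of -0.87. Collagen genes are long, with a median transcript of 5642 bases against 2564 for all genes, and with length as a covariate 3 were lower and the median was -0.20. The count was 14 without HPT SC 6 and HPT HFHS 2. Fibroblast markers, which include Col3a1 and Col1a1, had 2 of 10 lower with an unadjusted p under 0.05 (20%, against 6.59% of all genes). Their median was 0.01, and Dcn, a proteoglycan of fibroblasts, had 0.29 ± 0.23.

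Targets of the fatty acid receptors of the PPAR family had 4 of 21 genes higher with an unadjusted p under 0.05 (19%, against 4.08% of all genes) and 0 lower, with a median of 0.18. Angptl4, a secreted inhibitor of lipoprotein lipase that fatty acids induce, had 41.6, 83.8, 18.2, 21.9 and 18.6 CPM in HPT HFHS and a lowest, median and highest value of 12.4, 14.3 and 21.7 CPM in HPT SC. Hippocampus libraries held 7.68, 18.1 and 29.6 CPM in Hippo HFHS and 7.35, 10.7, 3.98, 14.7 and 10.3 CPM in Hippo SC. The diets overlapped in both regions, and the log2 fold change was 1.01 ± 0.28 (adjusted p = 0.209 by edgeR, 0.0337 by DESeq2).

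Plin2, a coat protein of lipid droplets, had a log2 fold change of 0.39 ± 0.14, and Acadm, the medium-chain dehydrogenase of fat oxidation, 0.29 ± 0.14. The highest Angptl4 value of hypothalamus was that of HPT HFHS 2, the library with the highest astrocyte level. Of 24 fatty acid oxidation genes 5 were higher with an unadjusted p under 0.05 (20.8%, against 4.08% of all genes). Cpt1c, a neuronal form of the carnitine transferase, was the 1 that was lower (4.17%, against 6.59%). That count of 5 was 2 without HPT HFHS 2, HPT SC 1, HPT SC 2, HPT SC 4, HPT SC 5 or Hippo HFHS 7, 3 without HPT SC 3, HPT HFHS 1 or Hippo SC 3, and 11 without Hippo SC 2. The counts were 3 higher and 0 lower with length as a covariate, and with the astrocyte score 2 were higher and 2 lower. Of 23 cholesterol synthesis genes, 0 had an unadjusted p under 0.05 in edgeR. DESeq2 and voom called 0, with 1 higher in DESeq2 and 2 higher and 1 lower in voom at that unadjusted threshold. With length as a covariate 3 were higher, and with the astrocyte score 2 were lower. Without Hippo SC 2, 3 were higher, and 1 was higher or lower without HPT SC 4, HPT HFHS 2, Hippo SC 1 or Hippo HFHS 2 and 1 each way without HPT SC 6.

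Glycolysis had 4 of 24 genes higher and 1 lower, the respiratory chain 5 of 28 higher and antioxidant defence 4 of 22 higher, each with an unadjusted p under 0.05, against 4.08% of all genes. With length as a covariate the higher counts were 6 for glycolysis, with 0 lower, 1 for the respiratory chain and 4 for antioxidant defence, and with the astrocyte score the respiratory chain count was 1. The glycolysis count was 7 without Hippo SC 2, Hippo SC 5 or Hippo HFHS 3 and 8 without Hippo HFHS 4. The respiratory chain count was 1 without HPT HFHS 2, 2 without HPT SC 2, 3 without HPT HFHS 1, Hippo SC 3 or Hippo HFHS 7, and 10 without HPT SC 6. Log2 fold changes were small for glycolytic enzymes, as in Aldoa, the aldolase of glycolysis (0.26 ± 0.09). Hmox1, which breaks down heme, had 18.5, 22.1, 21.4, 14.0 and 17.8 CPM in HPT HFHS, against a lowest, median and highest value of 10.0, 11.8 and 23.3 CPM in HPT SC where the highest was HPT SC 6. In hippocampus Hmox1 had 12.9 ± 3.61 CPM in Hippo HFHS and 8.64 ± 1.31 CPM in Hippo SC, and over both regions its log2 fold change was 0.54 ± 0.16 (adjusted p = 0.228 by edgeR).

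Clock genes had 4 of 18 higher and 1 lower with an unadjusted p under 0.05, against 4.08% and 6.59% of all genes, and 6 higher and 0 lower with length as a covariate. Dbp, an output gene of the clock with a strong daily rhythm, had 64.9, 123, 67.1, 58.6 and 69.5 CPM in HPT HFHS and a lowest, median and highest value of 40.4, 46.2 and 57.7 CPM in HPT SC, with no overlap. In hippocampus it had 42.8, 52.6 and 89.0 CPM in Hippo HFHS and 24.4, 76.4, 25.1, 36.4 and 32.6 CPM in Hippo SC, where Hippo SC 2 lay among the HFHS libraries. The log2 fold change was 0.65 ± 0.18 (adjusted p = 0.222 by edgeR, called by DESeq2 and voom). Nr1d1, the REV-ERB alpha repressor, had 0.53 ± 0.16, and Clock, which activates both genes, had -0.44 ± 0.17. The labels used here give no time of day for tissue collection.

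Glucocorticoid targets had 3 of 16 higher with an unadjusted p under 0.05 (18.8%, against 4.08% of all genes) and 0 lower. The higher count was 5 without HPT HFHS 4 or HPT HFHS 5. The 3 were Sult1a1, a sulfotransferase (0.68 ± 0.23), Tsc22d3, the glucocorticoid-induced leucine zipper (0.54 ± 0.19), and Klf9, a transcription factor of steroid and thyroid responses (0.51 ± 0.20). Klf9 had 117, 156, 133, 141 and 118 CPM in HPT HFHS and a lowest, median and highest value of 55.2, 81.7 and 132 CPM in HPT SC, and the diets overlapped in both regions. Immediate early genes, which fire within minutes of stimulation and also during tissue dissociation, had 3 of 20 lower and 1 higher, against 6.59% and 4.08% of all genes. With length as a covariate 7 were lower and 0 higher, and 1 was lower and 1 higher without HPT SC 6 and HPT HFHS 2 together. The higher count was 0 without any of HPT SC 1, 2, 4, 5 and 6, HPT HFHS 1, 3 and 5, Hippo SC 1, 2, 4 and 5, and Hippo HFHS 1, 3, 4 and 6. Nr4a1, a nuclear receptor of that class, had 193, 77.5, 158, 178 and 179 CPM in HPT HFHS against 116, 243 and 305 CPM in HPT SC, and 122, 146 and 197 CPM in Hippo HFHS against 217, 190.5, 239, 276 and 203 CPM in Hippo SC. Its log2 fold change was -0.55 ± 0.15 (adjusted p = 0.209 by edgeR).

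Insulin and leptin are the hormones that report energy stores to the hypothalamus. Of 20 genes of their signalling, 9 had log2 fold changes below 0 in both regions (6143 of all 20838 genes) and 4 above (6311). With an unadjusted p under 0.05, 2 were higher (10%, against 4.08% of all genes) and 2 lower (10%, against 6.59%). The higher count was 1 without HPT SC 3, HPT SC 5, HPT SC 6, HPT HFHS 3, Hippo SC 2 or Hippo HFHS 4, and the lower count was 1 without HPT SC 5, HPT HFHS 5, Hippo SC 2, Hippo SC 4, Hippo SC 5 or Hippo HFHS 7 and 4 without Hippo HFHS 2. The 2 higher genes were Tsc22d3, counted among the glucocorticoid targets above as well, and Insr. Insr, the insulin receptor, had a log2 fold change of 0.40 ± 0.18. Irs1, the docking protein below it, had a log2 fold change of -0.73 ± 0.24 over both regions, at -0.08 in hypothalamus and -1.34 in hippocampus. The difference of -1.26 ± 0.41 between regions had an unadjusted p of 0.00528 and an adjusted p of 1 by edgeR.

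The median log2 fold change of the astrocyte markers was 0.50, at 0.83 in hypothalamus and 0.25 in hippocampus. Of the 18 markers, 1 was higher with an unadjusted p under 0.05 (5.56%, against 4.08% of all genes). That gene was Glul, glutamine synthetase, at 0.46 ± 0.18 (adjusted p = 0.355 by edgeR). The count was 10 with length as a covariate, 12 without Hippo SC 2, 5 without Hippo HFHS 1, Hippo HFHS 3 or Hippo HFHS 4, 2 without HPT HFHS 4 or Hippo HFHS 5, and 0 without HPT HFHS 2. Gfap, the filament protein that reactive astrocytes accumulate, had 230 ± 108 CPM in HPT HFHS and 131 ± 44.2 CPM in HPT SC, and 391 ± 270 CPM in Hippo HFHS and 478 ± 288 CPM in Hippo SC, a log2 fold change of 0.24 ± 0.34 (adjusted p = 0.846 by edgeR). Aqp4, the water channel of astrocyte end-feet, had 0.33 ± 0.32. Of 20 genes of reactive astrocytes, 0 were higher and 3 lower with an unadjusted p under 0.05 (15%, against 6.59% of all genes). The 3 were Lcn2, Osmr, a receptor of oncostatin M (-1.05), and Steap4, a metalloreductase (-1.09, and -0.83 with length as a covariate). That count was 5 without HPT SC 6 and 2 with length as a covariate.

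**Figure D5:**
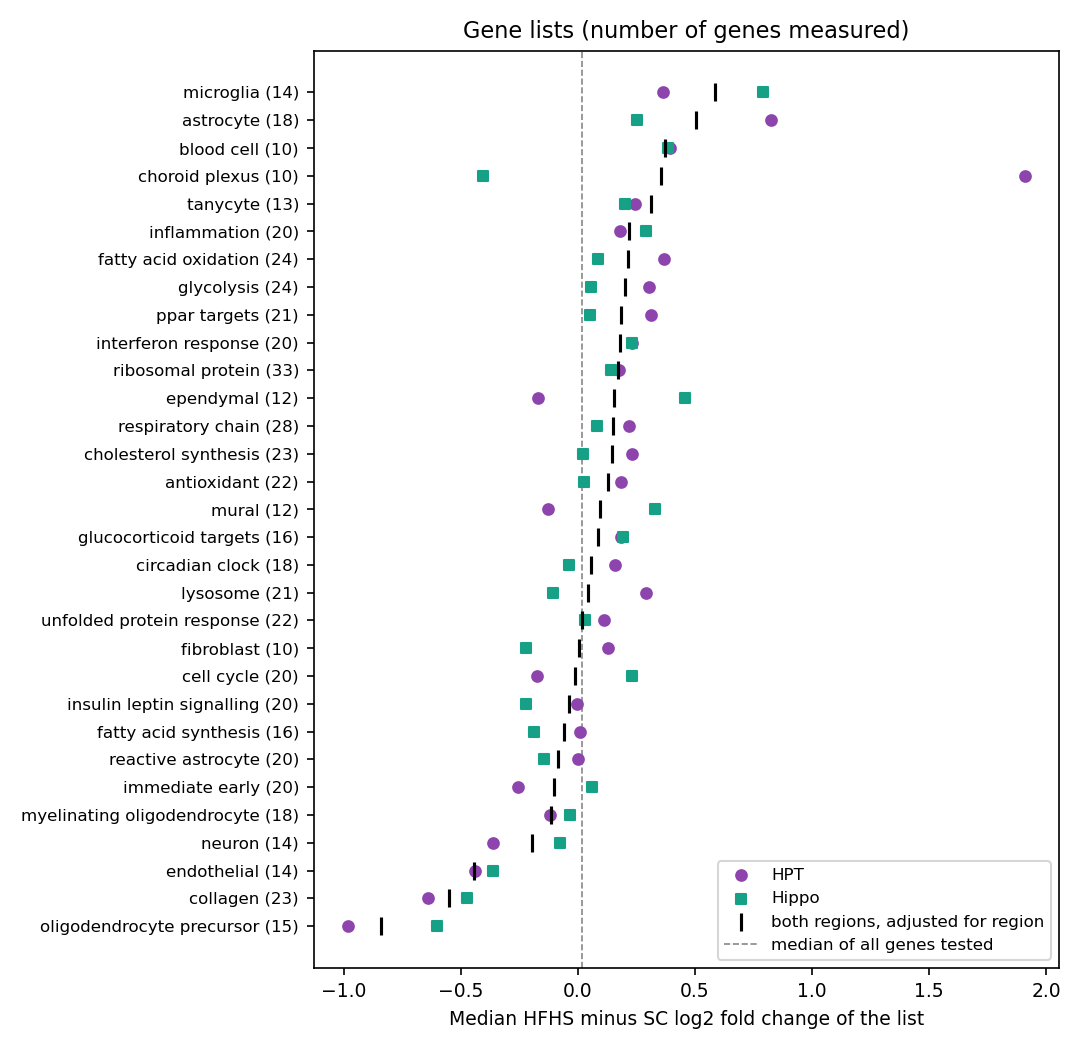
Median log2 fold change of HFHS over SC for each of 31 gene lists, in hypothalamus (circles), hippocampus (squares) and both regions adjusted for region (bars), with the median of all genes as a dashed line. Oligodendrocyte precursor genes lie lowest in both regions (-0.98 and -0.60) and microglia genes highest in the shared fit (0.58), while choroid plexus genes differ most between regions.

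No gene passed for a diet effect that differs between the regions. Of 20838 genes, 0 had an adjusted p under 0.05 for the region by diet interaction (0%, edgeR), 613 had an unadjusted p under 0.05 (2.94%; 322 above 0, 1.55%, and 291 below, 1.4%), and DESeq2 called 3. In simulated counts of this test, with each gene drawn independently, edgeR recovered 6% of 2-fold and 43% of 4-fold differences. Differences are given as hippocampus minus hypothalamus. Oprl1, the nociceptin receptor, had 6.74, 3.25, 4.61, 10.6 and 7.86 CPM in HPT HFHS against 12.3, 17.6 and 22.7 CPM (lowest, median, highest) in HPT SC, with no overlap, and 2.04, 3.19 and 7.62 CPM in Hippo HFHS against 2.81, 2.72, 3.01, 3.55 and 3.87 CPM in Hippo SC. The difference was 1.66 ± 0.43 (unadjusted p = 0.000832, adjusted p = 1 by edgeR).

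The kappa opioid receptor gene Oprk1, of the same receptor family, differed the other way at low levels, with means of 1.52 ± 1.12 CPM in HPT HFHS and 0.765 ± 0.288 CPM in HPT SC, and 0.0151 ± 0.0262 CPM in Hippo HFHS and 0.167 ± 0.145 CPM in Hippo SC. Col27a1, a fibrillar collagen, had a log2 fold change of 0.85 in hippocampus and a lower mean on HFHS in hypothalamus, with a difference of 1.85 ± 0.48, and Kdelr1, a retrieval receptor of the endoplasmic reticulum, had -0.36 in hippocampus and 0.63 in hypothalamus. Sult1c2, a sulfotransferase, was at 0 CPM in all but 1 HPT SC library. The smallest unadjusted p of these was 0.000826, for Oprk1, and the adjusted p was 1 for each by edgeR.

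Set against cortex, 0 of 21574 genes had an adjusted p under 0.05 for the mean diet effect of hypothalamus and hippocampus minus that of cortex (0%, edgeR on all 35 libraries), while 2959 had an unadjusted p under 0.05 (13.7%), 1489 above 0 (6.9%) and 1470 below (6.81%). For diet in cortex alone 0 passed (0%), and 2956 had an unadjusted p under 0.05 (13.7%), 1240 higher (5.75%) and 1716 lower (7.95%). DESeq2 called 371 and voom 742, and edgeR called 1469 without CTX HFHS 6 and 66 without Hippo HFHS 2. Mean transcript length was 2179 bases in CTX HFHS 6 and 1922 bases in CTX SC 6, against 2624 to 2963 bases in the other cortex libraries. The labels give MS sorting columns for hypothalamus and hippocampus, and LS columns with scaled-up volumes for cortex, so that column and region cannot be told apart. The precursor list had a median log2 fold change of -0.03 in cortex, with members from -2.86 (C1ql1) to 0.84 (Neu4). Pdgfra had 4.41 ± 3.20 CPM in CTX HFHS and 4.50 ± 2.86 CPM in CTX SC (n = 6 each). The difference of the shared and the cortex effect was -1.68 ± 0.61 for Pdgfra (adjusted p = 0.223 by edgeR) and -2.26 ± 0.57 for Gpr17 (adjusted p = 0.119).

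H2-Eb1 had 3.15 ± 2.05 CPM in CTX HFHS and 4.85 ± 3.21 CPM in CTX SC, and a difference of 2.17 ± 0.64 between the shared and the cortex effect (adjusted p = 0.15 by edgeR). The other class II genes had higher means on HFHS in cortex, with overlapping spreads. CTX HFHS and CTX SC had 15 ± 8.64 and 11.2 ± 7.65 CPM of H2-Ab1, and 6.8 ± 4.51 and 6.34 ± 4.21 CPM of H2-Aa. Cd74 had 36.7 ± 16.7 CPM in CTX HFHS and 29 ± 22.5 CPM in CTX SC. Il1b had 0.503 ± 0.343 CPM in CTX HFHS and 2.51 ± 1.78 CPM in CTX SC, opposite to the other regions, with a difference of 3.36 ± 0.72 (adjusted p = 0.099). Ackr1, Lcn2 and Col3a1 had lower means on HFHS in cortex too, Lcn2 at -6.04 and Col3a1 at -1.80 on the log2 scale, and the 3 differences between the shared and the cortex effect had adjusted p of 0.895, 0.482 and 0.868 by edgeR. In CTX SC the SD exceeded the mean for all 3, at 17.4 ± 32.8, 17 ± 35.3 and 3.17 ± 3.9 CPM in that order. The highest CTX SC library held 83.1 CPM of Ackr1, 88.5 CPM of Lcn2 and 10.9 CPM of Col3a1, so these cortex means lean on single high values.

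The 5 named genes with the smallest p in this comparison were Wrn, a DNA helicase, Pcdh15, a cadherin, Hltf, a chromatin remodeller, Rn7s1, a signal recognition particle RNA, and Cxcr5, a chemokine receptor. Wrn had 27.4 ± 4.24 CPM in HPT HFHS and 43.1 ± 9.64 CPM in HPT SC, 19.0 ± 6.81 CPM in Hippo HFHS and 24.9 ± 7.30 CPM in Hippo SC, and 14.3 ± 4.84 CPM in CTX HFHS and 7.03 ± 0.632 CPM in CTX SC. The difference was -1.54 ± 0.28 (adjusted p = 0.0913 by edgeR). Pcdh15 and Hltf also had lower means on HFHS in hypothalamus and hippocampus and higher means in cortex. Cxcr5 stayed under 1 CPM in all groups.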

How the data were processed

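Salmon made the deposited estimated counts and TPM values per transcript on build GRCm38, and FastQC was run, per the submitters' processing notes; their versions and the transcript set were not found in the labels. Of 140948 transcripts, 139852 matched GENCODE mouse release M21, and the 1096 others (0.214% to 0.535% of counts) were left out. The authors' estimated counts were summed over 54119 genes and rounded. The kit does not mark strand, so antisense and overlapping genes, paralogs and pseudogenes remain uncertain. No 2 libraries held identical values.

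Genes passing filterByExpr on the 4 groups were tested with edgeR 4.0.16 in R 4.3.3 (TMM, robust quasi-likelihood, region plus diet), with Benjamini-Hochberg adjustment over all genes and a threshold of 0.05. Interaction and single-region effects came from a model of the 4 groups, and the contrast with cortex from a model of 6 groups. CPM used TMM library sizes, and the SE is the fold change over the square root of F. A list score is the mean log2 CPM (prior count 2) of its genes. Library properties were compared by exact permutation within region.

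Named genes are the 20 smallest p values (clone names and pseudogenes left out), 5 each for interaction and cortex, up to 4 per list described, and Atp1b2, Gfap and Aqp4. The members, the 31 lists and the tests were chosen with earlier results of these data known. Lists got counts and medians, with no set test. Alternatives were DESeq2 1.42.0, limma 3.58.1 voom, other scalings and filters, the deposited TPM scaled to library totals, covariates, replicate blocks and each library left out. The simulations drew each gene independently and had 200 changed genes, and in them 4.55% of the shared-effect calls were false. Some genes that the rule names are not reported here.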

Additional observations from a re-analysis of the deposited data

Results flagged for a closer look

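In 528 groups of 5 to 7 libraries, 42 values stood apart from the rest of their group. The measure was the gap to the nearest library over the range, against Dixon's 95% critical value. Independent normal values would give about 1 in 20 groups. The groups reuse the same libraries over related genes, so that rate is only a rough guide. Gene gaps were taken on log2 CPM after adding 0.01. For Retnlg, Sult1c2 and hippocampal Olfr874, all other libraries of the flagged group were at 0 CPM. Scores are mean log2 CPM of a list.

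Library HPT SC 6 held 12. It was low for Hap1 (75.9 CPM), Stk11ip (25.6 CPM), Stat2 (11.9 CPM), Olfr874 and Steap4 (both 0 CPM), the collagen score (2.45) and transcript length (2483 bases). It was high for Etfb (110.3 CPM), Gapdh (1373 CPM), Tpi1 (326.5 CPM), Hmox1 (23.3 CPM) and the respiratory chain score (7.53).

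Library HPT HFHS 2 held 8. It was high for the scores of astrocytes (10.28), fatty acid oxidation (6.402) and the clock (5.62), and for Kdelr1 (46.7 CPM), Dbp (123 CPM) and Rora (125.9 CPM). It was low for Abcb1a (4.56 CPM) and Nr4a1 (77.5 CPM).

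Library HPT SC 1 held 7. It was low for Gfap (53.7 CPM), Nr4a1 (116 CPM), Fosb (9.74 CPM), Mt1 (304 CPM) and the scores of inflammation (2.93) and immediate early genes (5.39), and high for Glul (540.3 CPM).

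Hippo HFHS 4 was high for C1qc (334 CPM), C1qb (385 CPM) and Olfr874 (0.0203 CPM). Hippo HFHS 2 was low for Dcn (12.9 CPM) and long in transcripts (2966 bases). Sema3d was high in HPT HFHS 4 (8.90 CPM) and Retnlg in HPT HFHS 3 (0.0368 CPM), and S100a8 was low in HPT HFHS 1 (0 CPM). Arap3 was low in Hippo HFHS 3 (1.30 CPM) and Acadm in Hippo HFHS 1 (64.7 CPM). Sult1c2 was high in HPT SC 5 (0.0196 CPM), Olfr874 in Hippo SC 4 (0.157 CPM) and the microglia score in Hippo SC 5 (5.65), while Tnr was low in Hippo SC 1 (4.70 CPM) and Insr in Hippo SC 2 (11.5 CPM).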

How the results depend on the processing

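The shared diet effect gave 0 calls in edgeR and 197 in DESeq2, 830 in voom, 23 with the astrocyte score as a covariate, 18 without HPT SC 6 and HPT HFHS 2, 1 (Gm5831) in the model of 6 groups and 1 (Vsig10) with the level of Dapk3 as a covariate, the last chosen after seeing the data. Leaving out single libraries gave 0 to 70 calls, with 70 without Hippo HFHS 2, 41 without HPT SC 6, 11 without HPT HFHS 4, 2 without Hippo HFHS 6 and 1 without Hippo SC 1, Hippo SC 5 or Hippo HFHS 5. The interaction gave 3 calls in DESeq2 and 0 without any single library. The difference to cortex gave 371 in DESeq2, 742 in voom, 8 with the astrocyte score, 2 with upper quartile scaling and 2 without HPT SC 6 and HPT HFHS 2. There, single libraries left out gave 0 to 1469, with 1469 without CTX HFHS 6, 66 without Hippo HFHS 2 and 1 without HPT HFHS 3, Hippo SC 5 or CTX HFHS 2. The cause of these moves was not tested. Same-numbered hypothalamus and hippocampus libraries of a diet had correlations of -0.0674 to 0.375, over 0.1 in 4 of 10 pairs. Of these pairs 5 of 10 correlated best with their own number, and the consensus correlation in voom was 0.165. Same-numbered HFHS and SC libraries of a region had correlations of 0.0122 to 0.491, over 0.1 in 5 of 10 pairs. These values do not settle whether the numbers mark pairs or batches, and the numbers were not taken as pairs. The replicate block, by number across both diets and regions, gave 12 calls for the shared effect, and 0 with transcript length added. Libraries of the same diet and number as a random effect in voom gave 0. With block and length Steap4 was at -0.0279 and Osmr at -0.514, and Steap4 was at -0.55 with the random effect. Atp1b2, Gfap and Aqp4 belong to the astrocyte list, so the astrocyte score contains each of them. Turns of these genes with that score are in part built in. Direction turned for Atp1b2 (0.10 as reported; -0.283 in voom, -0.476 with the astrocyte score, -0.271 without HPT SC 6 and HPT HFHS 2, -0.177 with the replicate block, -0.184 with the pool as a random effect, -0.276 to 0.352 over single libraries left out), for Gfap (-0.138) and Aqp4 (-0.0505) with the astrocyte score, for Mag with length (0.0465) and with block and length (0.0675), and for Gjb1 with block and length (0.016).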

Other observations

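Ribosomal protein genes are the short and abundant transcripts of the translation machinery. In both regions 30 of 33 had log2 fold changes above 0, against 6311 of all 20838 genes. The median log2 fold change of these 33 genes was 0.17. Of these genes 1 was higher with an unadjusted p under 0.05 by edgeR (3.03%, against 4.08% of all genes). That count was 6 without HPT HFHS 4, 5 without HPT SC 6, 3 without HPT HFHS 2 and 2 without HPT HFHS 5 or Hippo HFHS 6. It was 0 without HPT SC 1, HPT SC 2, HPT HFHS 1, HPT HFHS 3, Hippo SC 2, Hippo SC 4, Hippo SC 5, Hippo HFHS 1, Hippo HFHS 3 or Hippo HFHS 7. In cortex their median was -0.81. There, mean transcript length was 1922 bases in CTX SC 6 and 2179 bases in CTX HFHS 6, against 2624 to 2963 bases in the other libraries. The part of library length in the cortex median was not tested. The median transcript length of the ribosomal protein genes was 852 bases, and with library length as a covariate the shared median was 0.06.

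Choroid plexus genes, expressed by the tissue that makes cerebrospinal fluid, had a median log2 fold change of 1.91 in hypothalamus and -0.41 in hippocampus. Their summed level had a lowest, median and highest value of 175, 691 and 3210 CPM in HPT HFHS, 120, 190 and 780 CPM in HPT SC, 2950, 7860 and 21600 CPM in Hippo HFHS and 128, 10300 and 23200 CPM in Hippo SC. None of the 10 genes had an unadjusted p under 0.05 in the shared fit by edgeR.

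In 1 gene, the unannotated Gm37488, the HFHS libraries lay below all SC libraries in both regions (0.0048% of genes), at a mean log2 CPM of -3.15, and in 0 genes (0%) they lay above them in both.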
